A study of Mus musculus with 32 samples.

Results

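The step from 6 mM to 10 mM hydrazine was examined in FE1 cells that were collected at the end of a 4 h exposure. It rests on 6 of the 32 libraries of the series, 3 labelled 10 mM and 3 labelled 6 mM, chosen by dose and time alone. FE1 is an immortalised epithelial line grown out of the lung of a transgenic mutation-reporter mouse, so all values describe a single cell line. The other libraries came from cells given 4 mM (5 libraries), 1 mM or vehicle (3 libraries each) for 4 h, and from cells given 10, 6, 4 or 1 mM or vehicle for 4 h and then kept for 20 h without the compound (3 libraries each). No other agent, genotype or gene alteration was stated for any group. Nothing in the labels tells whether replicates came from separate cultures. The p-values below therefore measure only the spread among libraries of the same group, pooled over all 32 in 1 fit, which may be technical.

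Hydrazine is a small, reactive nitrogen compound used as a propellant and a chemical intermediate, and it causes tumours in rodents. It binds carbonyl groups, pyridoxal phosphate among them, and in the cell it can lead to methylated DNA bases. Cells meet such damage with several programmes that act on RNA levels: p53 raises its target genes and, through p21 and the DREAM repressor complex, lowers the genes of mitosis; the factor ATF4 raises genes of amino acid supply when translation initiation is held back; SREBP factors set the genes of sterol synthesis; and signalling kinases switch on short-lived "immediate early" transcripts such as Fos.

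The 3 libraries at 10 mM held 11086923, 12629989 and 14679741 counts, and the 3 at 6 mM held 13321189, 11606972 and 12238892, within the series' range of 10560942 to 17086721. On the first principal component of the 4 h libraries, which carried 33.3% of the variance, the 10 mM libraries lay at 48.36 to 49.61 and the 6 mM libraries at 7.13 to 11.82, with 4 mM at -10.57 to -6.87. The share of counts from the mitochondrial genome was 1.226%, 1.321% and 1.253% at 10 mM, against 1.611%, 1.578% and 1.574% at 6 mM. Replicates were not copies of each other (chi-square per degree of freedom at least 3.12). Of 18 lung epithelial marker genes only 4 were expressed enough to test, and Epcam, Cdh1 and the surfactant genes were not among them, while all 12 mesenchymal markers were tested. Of the leukocyte markers 1 of 8 was tested, and of the endothelial markers 0 of 6. In bulk RNA, fewer cells of a kind and less RNA per cell cannot be told apart.

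Between 10 mM and 6 mM, 4969 of 13258 genes tested (37.5%) passed an adjusted p of 0.05, 2586 of them higher (19.5%) and 2383 lower (18%) at 10 mM. All adjusted p-values come from the quasi-likelihood test of edgeR, adjusted by Benjamini and Hochberg's method over all genes tested. Log2 fold changes, 10 mM over 6 mM, carry their standard error. CPM values are scaled by TMM, and the error of a mean CPM is the SD (n = 3 libraries per group, 5 for 4 mM). The large changes were mostly decreases: 504 genes (3.8%) fell at least 2-fold and 165 (1.24%) rose at least 2-fold. In 3486 genes (26.3%) every 10 mM library lay above every 6 mM library, and in 3212 (24.2%) every one lay below. The split depended on scaling. With TMM factors 52% of the called genes were higher, with DESeq2 size factors 52.8% and with library totals alone 30.5%, where the median of all genes moved to -0.11 on the log2 scale (1565 genes then higher). Changes below are therefore relative to a median gene, which stood at -0.003 with TMM scaling.

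**Figure D1:**
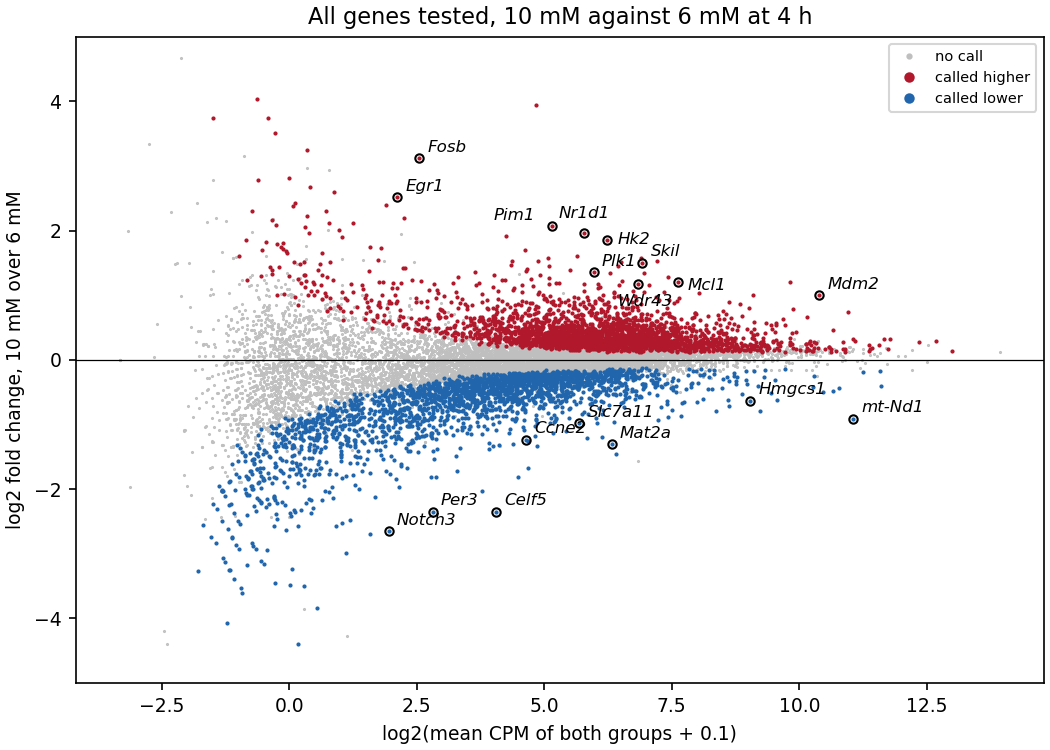
Log2 fold change (10 mM over 6 mM at 4 h, vertical axis) against the log2 mean CPM of both groups plus 0.1 (horizontal axis), 1 point per gene tested, red where called higher and blue where called lower at 10 mM. The 25 genes beyond the axis at 5 had 1 of the groups at 0 in all libraries; called decreases of at least 2-fold (504) outnumber such increases (165) and lie mostly at low CPM.

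Genes that 4 mM had raised against vehicle tended to be lower at 10 mM than at 6 mM, and genes that 4 mM had lowered tended to be higher. The comparison of 4 mM with vehicle called 5113 genes (38.6%), 2585 higher (19.5%) and 2528 lower (19.1%), and shares no library with the step. Of 2585 genes higher at 4 mM, 977 (37.8%) were called lower in the step and 264 (10.2%) higher. Of 2528 genes lower at 4 mM, 1145 (45.3%) were called higher in the step and 256 (10.1%) lower. Of the 8145 genes without a call at 4 mM, 14.5% were higher and 14.1% lower. The contrast was wider for the strong responders: of 467 genes at least 2-fold higher at 4 mM, 45.8% were lower and 5.14% higher in the step, with a median log2 fold change of -0.65, and of 136 at least 2-fold lower at 4 mM, 50% were higher and 6.62% lower, with a median of 0.43. Read from the other side, 232 of the 504 genes that fell at least 2-fold in the step (46%) had been called higher at 4 mM and 12 (2.38%) lower, against 19.5% and 19.1% of all genes tested. The 504 were picked for a level at 6 mM far above that at 10 mM, and the protein-coding ones had a median of 1.97 CPM. Genes of so few CPM can pass the expression filter only through the doses where they are high. This count is therefore a description and no separate support for a reversal.

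**Figure D2:**
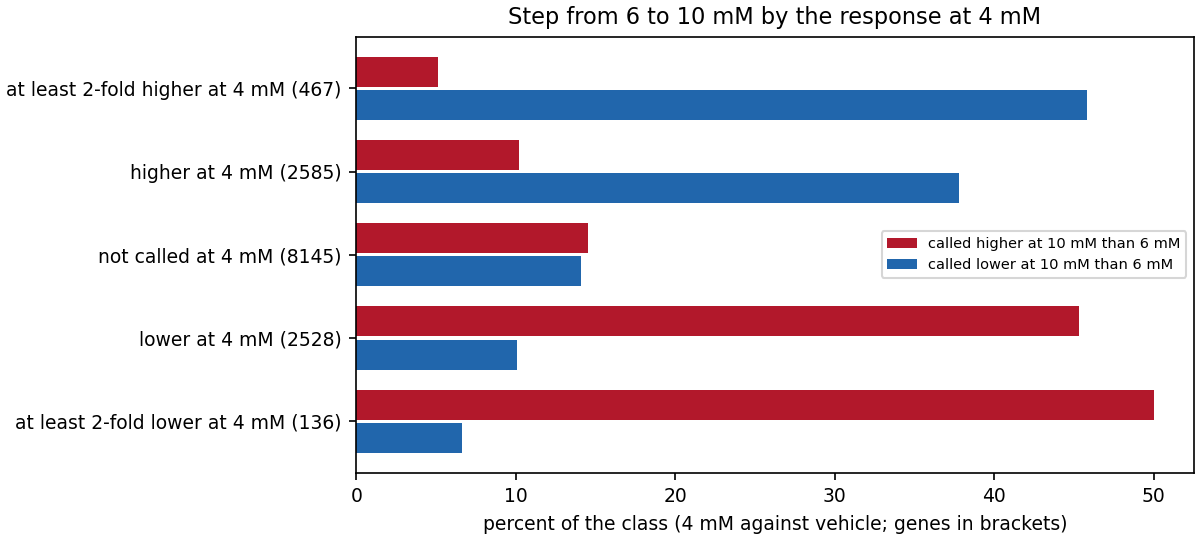
Percent of genes in each class of the 4 mM response (rows, with gene numbers) that were called higher (red) or lower (blue) at 10 mM than at 6 mM. The class at least 2-fold higher at 4 mM holds 45.8% lower and 5.14% higher genes, and the class at least 2-fold lower holds 50% higher and 6.62% lower.

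The largest increases at 10 mM included immediate early transcription factors and a set of genes for growth, glycolysis and the clock. Pim1, a kinase that promotes survival and growth, had 55.2, 54.0 and 62.1 CPM at 10 mM, against 14.0, 13.4 and 13.2 CPM at 6 mM. All 10 mM libraries stood about as high as each other and far from the 6 mM libraries (log2 fold change 2.07 ± 0.12, edgeR adjusted p = 1.5e-13). Hk2, the hexokinase that starts glycolysis, had 121, 107 and 125 CPM at 10 mM, against 34.6, 25.4 and 37.0 CPM at 6 mM. The groups were well apart (log2 fold change 1.86 ± 0.15, edgeR adjusted p = 5.19e-10). Nr1d1, which encodes the clock repressor REV-ERB alpha, had 87.2, 88.0 and 85.4 CPM at 10 mM, against 24.0, 22.0 and 20.5 CPM at 6 mM. Both groups were tight (log2 fold change 1.97 ± 0.11, edgeR adjusted p = 2.96e-14). Mmp13, a collagenase, averaged 75.4 ± 11.8 CPM at 10 mM and 24.8 ± 7.29 CPM at 6 mM. Tcim averaged 30.03 ± 5.82 CPM at 10 mM and 7.96 ± 1.25 CPM at 6 mM (log2 fold change 1.91 ± 0.23, edgeR adjusted p = 1.85e-07). These genes were not induced at the lower doses to the same level. Pim1 stood at 8.26 CPM in vehicle, 7.50 at 4 mM, 13.6 at 6 mM and 57.1 at 10 mM. Hk2 stood at 26.9 CPM in vehicle, 21.3 at 4 mM, 32.3 at 6 mM and 118 at 10 mM. In GENCODE M21 (GRCm38) Pim1 lies at chr17:29490753-29496112, Nr1d1 at chr11:98767932-98775333, Hk2 at chr6:82725025-82774454, Celf5 at chr10:81459227-81482709 and Per3 at chr4:151003652-151044665.

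Fosb, an AP-1 subunit, gave the largest fold of the genes named by rule, on few counts and with an uneven group. It had 20.6, 4.21 and 6.13 CPM at 10 mM, against 1.71, 0.774 and 0.991 CPM at 6 mM. Library a of 10 mM was far above the other two, and the groups did not overlap (log2 fold change 3.12 ± 0.58, edgeR adjusted p = 0.000133); fitted on these 6 libraries alone, its edgeR adjusted p was 0.068. Egr1, an immediate early zinc finger factor, had 12.9, 3.52 and 5.16 CPM at 10 mM, against 1.63, 0.602 and 1.40 CPM at 6 mM, with library a again highest (log2 fold change 2.52 ± 0.43, edgeR adjusted p = 4.69e-05). Fos, partner of Jun in AP-1, had 12.2, 5.24 and 5.68 CPM at 10 mM, against 2.40, 1.55 and 0.991 CPM at 6 mM (log2 fold change 2.20 ± 0.34, edgeR adjusted p = 7.89e-06). Gm37123, a gene model with no assigned function, averaged 6.07 ± 0.439 CPM at 10 mM and 1.16 ± 0.345 CPM at 6 mM. For Fos too library a was the highest of the 10 mM libraries.

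The largest decreases were mostly in genes that 4 mM had raised. Of the 15 largest, 14 had been called higher at 4 mM and 0 lower, against 19.5% and 19.1% of all genes tested. The 15 were picked for a level at 6 mM far above that at 10 mM. Some, such as Rassf2 and Apc2, reached the limit of 5 CPM only at 6 mM. The count is therefore a description and no separate support for a reversal. Celf5, a regulator of RNA splicing, had 5.005, 5.92 and 5.16 CPM at 10 mM, against 23.8, 34.5 and 24.0 CPM at 6 mM (log2 fold change -2.35 ± 0.15, edgeR adjusted p = 1.23e-12). Its level ran at 1.97 CPM in vehicle, 26.2 at 4 mM, 27.4 at 6 mM and 5.36 at 10 mM, so the 10 mM mean lay between vehicle and 6 mM. Pitpnc1, a phosphatidylinositol transfer protein, had 5.69, 4.81 and 5.68 CPM at 10 mM, against 19.7, 25.2 and 21.1 CPM at 6 mM, and the groups were far apart (log2 fold change -2.03 ± 0.16, edgeR adjusted p = 5.45e-11). The receptor gene Notch3 had 0.687, 1.80 and 0.598 CPM at 10 mM, against 5.42, 8.86 and 5.203 CPM at 6 mM, with library b highest in both groups (log2 fold change -2.65 ± 0.39, edgeR adjusted p = 5.12e-06). Sec14l5, a lipid-binding protein of the SEC14 family, had 0.491, 1.20 and 0.598 CPM at 10 mM, against 5.12, 6.62 and 3.30 CPM at 6 mM (log2 fold change -2.69 ± 0.36, edgeR adjusted p = 9.07e-07). Vehicle cells had 0.0906 ± 0.0930 CPM of Sec14l5, so this gene stayed above vehicle at both doses. Rassf2, of the family of RAS-binding proteins, averaged 1.15 ± 0.170 CPM at 10 mM and 5.10 ± 0.730 CPM at 6 mM. Apc2, a relative of the APC tumour suppressor, averaged 1.82 ± 0.498 CPM at 10 mM and 6.52 ± 0.909 CPM at 6 mM. Trim7, a ubiquitin ligase, averaged 4.51 ± 0.544 CPM at 10 mM and 14.7 ± 2.42 CPM at 6 mM. Thap2, a zinc finger protein, averaged 9.93 ± 0.761 CPM at 10 mM and 34.8 ± 4.35 CPM at 6 mM (log2 fold change -1.81 ± 0.11, edgeR adjusted p = 1.52e-13). Here vehicle stood at 30.7 ± 3.43 CPM, so 10 mM was below vehicle and not near it.

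**Figure D3:**
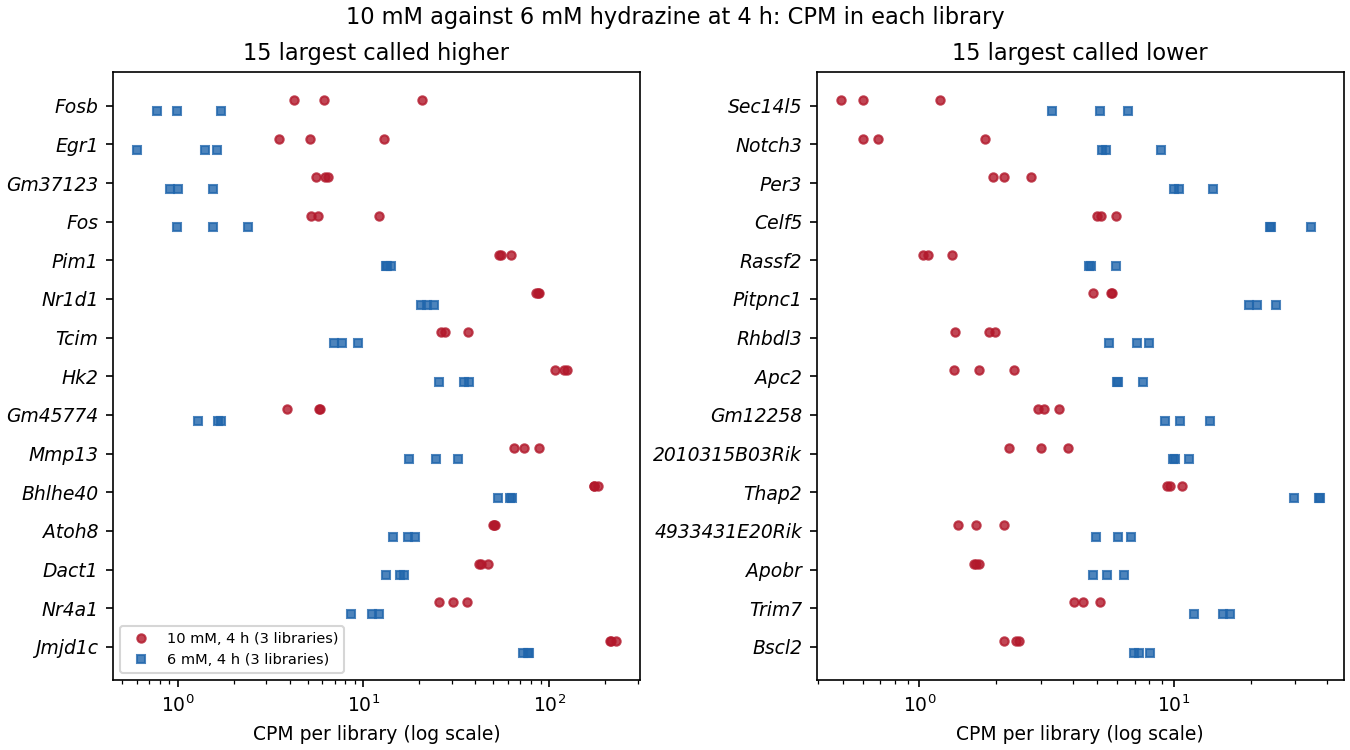
CPM (log axis) in each 4 h library for the 15 genes with the largest increases (left) and the 15 with the largest decreases (right), among called genes with a mean of at least 5 CPM in 1 of the groups and libraries that do not overlap; red circles are the 3 libraries at 10 mM and blue squares the 3 at 6 mM. Fosb and Egr1 spread widely at 10 mM, while Pim1, Nr1d1 and Hk2 do not.

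The genes of mitosis, which 4 mM had lowered, were higher at 10 mM than at 6 mM, while nearly all stayed below vehicle. Here and for each list below, the counts stand against 19.5% higher and 18% lower among all genes tested. Of 41 listed genes all were tested, 35 rose in the step and 0 fell, with a median log2 fold change of 0.49 and a range of -0.11 to 1.36. At 4 mM all 41 had been called lower. The 10 mM means stayed below vehicle for 40 of the 41, and the median log2 ratio to vehicle was -0.54, -0.50 and -0.51 in the 3 libraries at 10 mM, against -1.08, -1.05 and -1.04 at 6 mM. By role, 12 of 12 spindle motors and midzone proteins rose, 8 of 8 mitotic kinases, 7 of 9 cyclins and their regulators, 5 of 8 kinetochore genes and 3 of 4 genes of sister separation and arrest.

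Plk1, the kinase that drives entry into mitosis, had 90.5, 85.2 and 94.2 CPM at 10 mM, against 40.4, 31.5 and 33.4 CPM at 6 mM. The groups did not overlap (log2 fold change 1.36 ± 0.07, edgeR adjusted p = 2.96e-14). Over the doses its mean was 159.9 CPM in vehicle, 34.3 at 4 mM, 35.1 at 6 mM and 90.0 at 10 mM. Kif23, a motor of the central spindle, had 132, 129.9 and 126 CPM at 10 mM, against 57.5, 51.4 and 56.9 CPM at 6 mM (log2 fold change 1.23 ± 0.06, edgeR adjusted p = 2.72e-14). Cenpf, a kinetochore protein, had 83.4, 93.5 and 103 CPM at 10 mM, against 39.5, 46.1 and 42.6 CPM at 6 mM, all at 10 mM above all at 6 mM (log2 fold change 1.13 ± 0.13, edgeR adjusted p = 1.42e-07). Hmmr, a spindle protein, averaged 111 ± 9.20 CPM at 10 mM and 53.3 ± 2.47 CPM at 6 mM. Prc1, which bundles midzone microtubules, averaged 199.7 ± 6.13 CPM at 10 mM and 105 ± 7.45 CPM at 6 mM. Aurka, the spindle pole kinase, averaged 40.9 ± 4.09 CPM at 10 mM and 24.9 ± 1.47 CPM at 6 mM. Top2a, the topoisomerase that untangles chromosomes, averaged 578 ± 15.4 CPM at 10 mM and 362 ± 6.75 CPM at 6 mM. Ccnb1, the mitotic cyclin B1, moved less. It had 122, 111 and 124 CPM at 10 mM, against 84.1, 82.3 and 83.9 CPM at 6 mM, with no overlap (log2 fold change 0.52 ± 0.06, edgeR adjusted p = 1.26e-07), and it stayed under its vehicle mean of 269.8 ± 20.9 CPM.

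**Figure D4:**
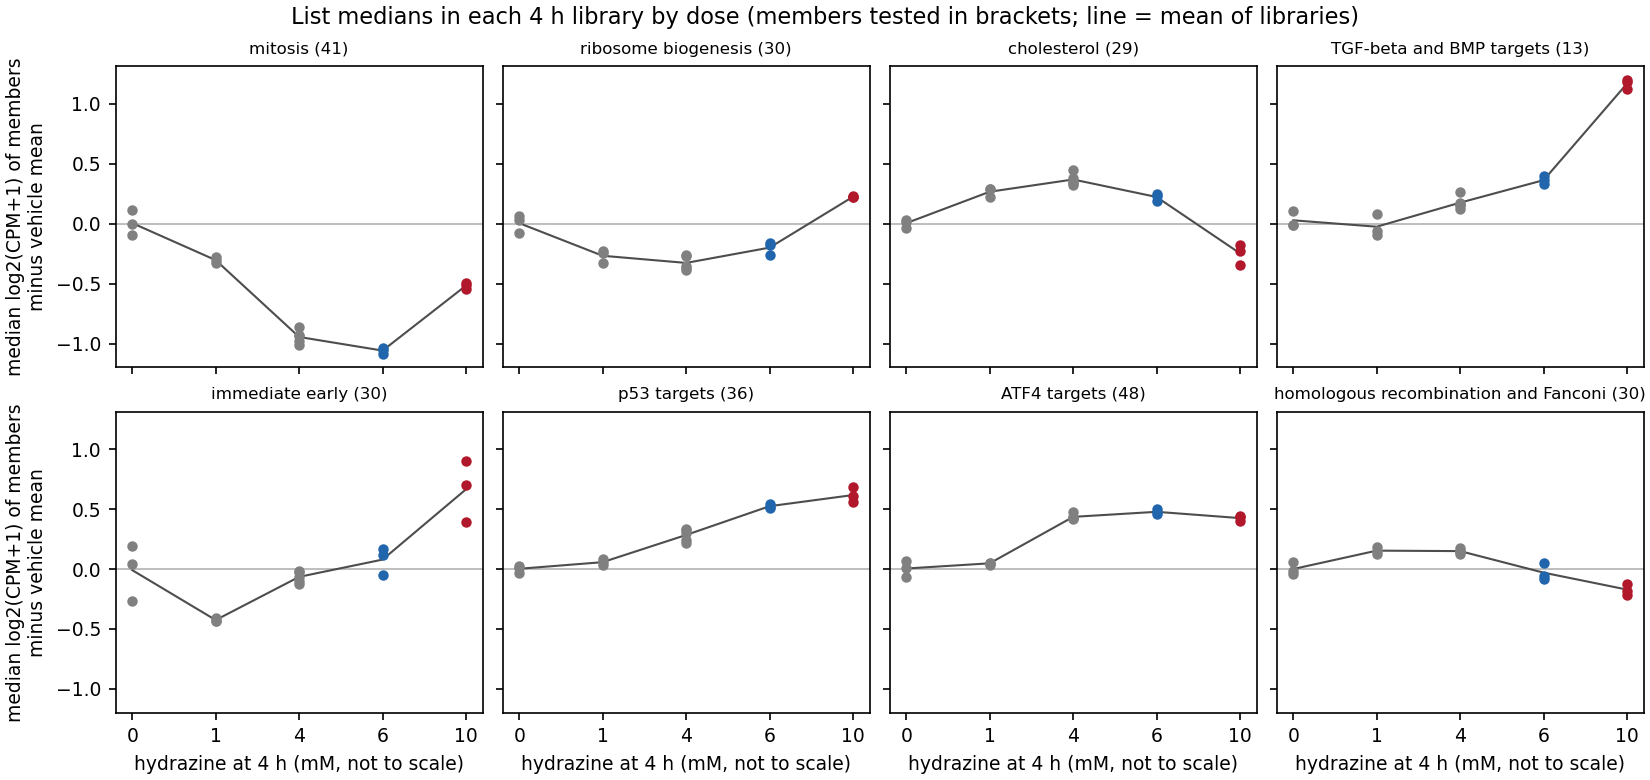
Median over list members of log2(CPM + 1) minus the vehicle mean (vertical axis) in each 4 h library, by hydrazine dose (horizontal axis, not to scale), with 10 mM in red, 6 mM in blue and a line through the group means. Mitosis genes reach their lowest median at 6 mM and lie at -0.54 to -0.50 at 10 mM, cholesterol genes cross below vehicle at 10 mM, and TGF-beta and BMP targets have their highest medians at 10 mM.

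The promoters of mitosis genes carry a known pair of elements, the CCAAT box bound by NF-Y and the CHR element, TTTGAA, through which the DREAM and MYB-MuvB complexes act. RefSeq windows of 300 bases (GRCm38.p6, 250 before to 50 after the start) were found for 36 of the 41 genes. TTTGAA, searched on both strands, was in 24 of the 36 (66.7%), against 14.3% of 9615 tested genes with a window, and CCAAT was in 27 (75%), against 43.7%. Of the 30 matched genes that rose, 21 held TTTGAA and 23 held CCAAT. Only the exact letters were searched, and fold change was not compared between genes with and without TTTGAA. As examples, windows from 150 bases before to 30 after the start are shown, 5′ to 3′ on the gene's strand. They are from 3 genes with both elements and from Ccnb1, which had CCAAT and no TTTGAA there. Capitals mark CCAAT (or ATTGG, its reverse complement) and TTTGAA.
Cenpf (chr1:189688057-189688236, minus strand): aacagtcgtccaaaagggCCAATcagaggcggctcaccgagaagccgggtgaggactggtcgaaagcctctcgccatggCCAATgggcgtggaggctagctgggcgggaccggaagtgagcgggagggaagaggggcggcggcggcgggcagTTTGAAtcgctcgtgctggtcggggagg
Kif23 (chr9:61946770-61946949, minus strand): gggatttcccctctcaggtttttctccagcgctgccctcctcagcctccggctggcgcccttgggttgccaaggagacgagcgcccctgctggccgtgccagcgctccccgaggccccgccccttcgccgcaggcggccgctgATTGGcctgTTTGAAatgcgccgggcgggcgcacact
Hmmr (chr11:40733408-40733587, minus strand): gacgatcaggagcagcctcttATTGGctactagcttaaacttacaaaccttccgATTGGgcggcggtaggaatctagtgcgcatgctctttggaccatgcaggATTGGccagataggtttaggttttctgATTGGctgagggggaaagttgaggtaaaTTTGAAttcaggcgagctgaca
Ccnb1 (chr13:100786457-100786636, minus strand): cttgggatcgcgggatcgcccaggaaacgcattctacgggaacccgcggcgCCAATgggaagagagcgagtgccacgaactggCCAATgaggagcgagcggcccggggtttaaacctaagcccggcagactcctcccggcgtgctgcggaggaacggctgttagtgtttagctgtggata
A match of letters is a description of the window and shows no binding.

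Of 36 replication genes 13 fell (36.1%), 6 rose (16.7%) and 17 had no call, with a median log2 fold change of -0.071. This split depended on scaling: 31.6% of the list's called genes were higher with TMM factors and 9.52% with library totals alone, where the median was -0.176. The 24 genes of licensing and the replication fork held 6 higher and 6 lower, and the 12 for S-phase cyclins, their factors and nucleotide supply held 7 lower and 0 higher, with a median of -0.261. Ccne2, cyclin E2, which starts S phase with CDK2, had 12.6, 14.8 and 16.6 CPM at 10 mM, against 31.7, 33.0 and 39.8 CPM at 6 mM (log2 fold change -1.24 ± 0.10, edgeR adjusted p = 1.32e-10). Its dose series was 52.9 CPM in vehicle, 52.1 at 4 mM, 34.8 at 6 mM and 14.7 at 10 mM. Ccne1, cyclin E1, had 5.89, 6.95 and 8.75 CPM at 10 mM, against 15.8, 16.6 and 16.0 CPM at 6 mM, again without overlap (log2 fold change -1.15 ± 0.12, edgeR adjusted p = 5.16e-09). Cdc6, which loads the MCM helicase, averaged 27.8 ± 0.923 CPM at 10 mM and 46.2 ± 0.656 CPM at 6 mM. Fen1, the flap nuclease of lagging strands, averaged 47.2 ± 4.04 CPM at 10 mM and 75.04 ± 3.81 CPM at 6 mM. Licensing genes were mixed: Cdt1, partner of CDC6, averaged 128 ± 13.4 CPM at 10 mM and 98.8 ± 3.80 CPM at 6 mM (log2 fold change 0.37 ± 0.08, edgeR adjusted p = 0.000387). Mcm6, a helicase subunit, averaged 374 ± 11.5 CPM at 10 mM and 316 ± 5.95 CPM at 6 mM (log2 fold change 0.24 ± 0.05, edgeR adjusted p = 0.000638), and Pcna, the sliding clamp, had no call with 356 ± 10.3 CPM at 10 mM and 369 ± 11.6 CPM at 6 mM (log2 fold change -0.05 ± 0.06, edgeR adjusted p = 0.534).

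Genes of homologous recombination, which repairs broken DNA from a sister copy, were described together with the Fanconi genes. Of 30 genes 10 were lower (33.3%, against 18% of all genes tested), 3 higher (10%, against 19.5%) and 17 without a call, and among the 18 recombination genes 9 were lower and 2 higher. Rad51c, a protein of recombination, averaged 8.57 ± 0.482 CPM at 10 mM and 14.4 ± 1.40 CPM at 6 mM. Brca2, a mediator of recombination, averaged 32.1 ± 0.684 CPM at 10 mM and 46.8 ± 5.91 CPM at 6 mM. Brca1, its upstream partner, averaged 51.5 ± 1.18 CPM at 10 mM and 67.1 ± 7.42 CPM at 6 mM. Exo1, an end-resecting nuclease, had 18.2, 14.9 and 19.1 CPM at 10 mM, against 29.1, 26.9 and 27.5 CPM at 6 mM, without overlap (log2 fold change -0.67 ± 0.08, edgeR adjusted p = 6.48e-08). Nbn, of the MRN break sensor, went the other way with 55.1 ± 3.68 CPM at 10 mM and 36.6 ± 1.21 CPM at 6 mM (log2 fold change 0.59 ± 0.07, edgeR adjusted p = 1.37e-07).

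Ribosome production genes, which act in rRNA synthesis and processing, rose almost as a block. Of 30 genes 27 rose and 0 fell, with a median log2 fold change of 0.42 and a range of 0.09 to 1.18. Their means lay below vehicle for 5 of 30 genes at 10 mM, against 22 of 30 at 6 mM. Wdr43, a factor of the small-subunit processome, had 157, 156 and 166 CPM at 10 mM, against 67.0, 67.3 and 76.7 CPM at 6 mM (log2 fold change 1.18 ± 0.09, edgeR adjusted p = 4.99e-11). Its 6 libraries split cleanly by dose. Gnl3, nucleostemin, averaged 155 ± 8.497 CPM at 10 mM and 84.6 ± 8.81 CPM at 6 mM. Ddx21, a nucleolar helicase, averaged 459 ± 17.4 CPM at 10 mM and 272 ± 10.3 CPM at 6 mM. Nop58, a core protein of box C/D particles, averaged 310 ± 13.5 CPM at 10 mM and 188 ± 8.58 CPM at 6 mM. Ncl, nucleolin, averaged 2353 ± 88.4 CPM at 10 mM and 1889 ± 39.3 CPM at 6 mM. Myc, which is known to raise such genes, was lower with 82.3 ± 2.81 CPM at 10 mM and 113 ± 11.3 CPM at 6 mM (log2 fold change -0.45 ± 0.10, edgeR adjusted p = 0.000807). Of the 83 cytosolic ribosomal protein genes tested 3 were called higher and 0 lower; with library totals alone 0 were higher and 2 lower, and with only the 4 h libraries in the fit 27 were higher and 1 lower. The count of 3 was 2 without library a and 1 without library c of 6 mM, and 0 without library b of 6 mM or without any 1 library of 10 mM.

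TGF-beta and BMP ligands signal through SMAD proteins, whose targets include their own inhibitors. Of 13 targets tested 11 rose and 1 fell, with a median log2 fold change of 1.03, against -0.003 over all genes. The inhibitors Smad7 and Smad6 rose. Smad7 had 43.4, 44.1 and 42.2 CPM at 10 mM, against 16.7, 16.5 and 18.9 CPM at 6 mM (log2 fold change 1.31 ± 0.07, edgeR adjusted p = 2.96e-14). Smad6 had 21.4, 24.6 and 23.0 CPM at 10 mM, against 9.53, 8.52 and 9.66 CPM at 6 mM. Neither gene's groups overlapped. Skil, a repressor that binds SMADs, had 166, 183 and 187 CPM at 10 mM, against 59.7, 63.9 and 65.4 CPM at 6 mM (log2 fold change 1.50 ± 0.11, edgeR adjusted p = 8.69e-12). Klf10, an early TGF-beta response factor, averaged 135 ± 15.6 CPM at 10 mM and 47.2 ± 5.23 CPM at 6 mM. Tgif1, a corepressor, averaged 47.2 ± 1.79 CPM at 10 mM and 20.9 ± 0.838 CPM at 6 mM. Id2, an inhibitor of helix-loop-helix factors and a BMP target, averaged 29.7 ± 1.36 CPM at 10 mM and 10.8 ± 1.20 CPM at 6 mM. Id1, its relative, averaged 57.5 ± 10.6 CPM at 10 mM and 31.9 ± 4.54 CPM at 6 mM. Ltbp2, a matrix protein of the TGF-beta binding family, was the target that fell, with 1.05 ± 0.375 CPM at 10 mM and 2.76 ± 0.147 CPM at 6 mM. At 4 mM 5 of the 13 had been called higher and 1 lower.

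**Figure D5:**
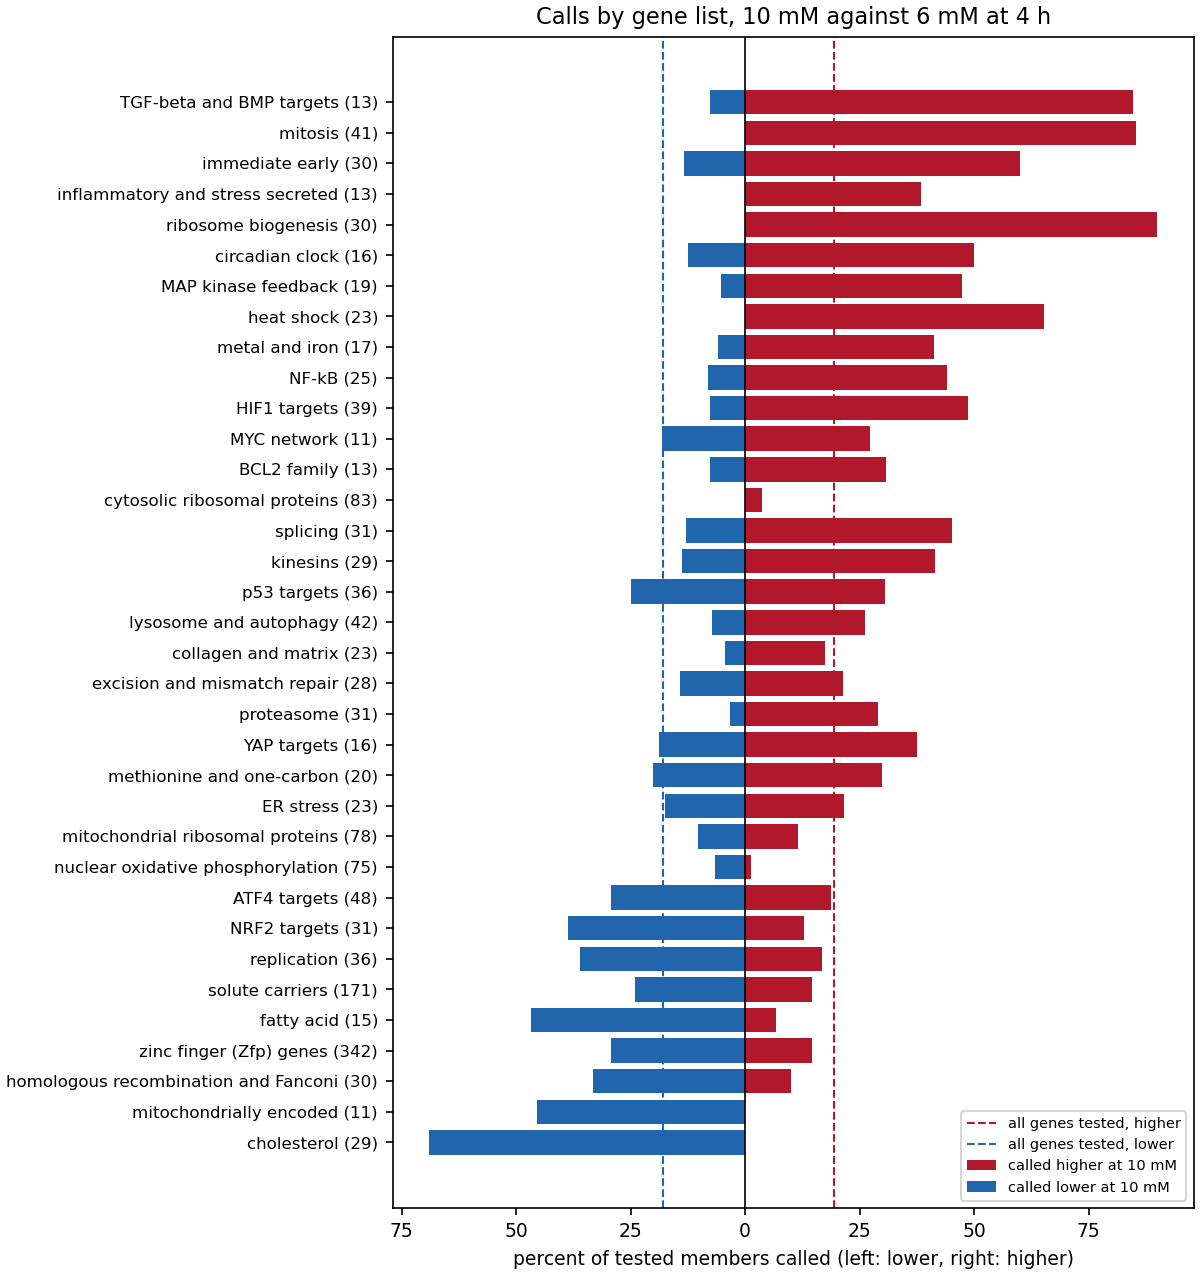
Percent of tested members (number in brackets) of each list with at least 10 tested genes, marker lists aside, called higher (red, right) or lower (blue, left) at 10 mM than at 6 mM, sorted by the median log2 fold change; dashed lines mark 19.5% higher and 18% lower over all genes tested. Mitosis, ribosome biogenesis and TGF-beta targets have the longest bars to the right and cholesterol genes the longest to the left.

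Immediate early genes, beyond Fosb, Egr1 and Fos, also moved: 18 of 30 rose and 4 fell, and of the 9 AP-1 genes 7 rose and 0 fell. The AP-1 element TGACTCA was in the promoter window of 0 of 23 matched members of this list, against 4.4% of tested genes. TGACGTC was in 2 of the 23 (8.7%), against 6.5%. Atf3, a stress factor of the AP-1 and ATF family, had 69.3, 66.9 and 60.2 CPM at 10 mM, against 23.9, 27.3 and 24.1 CPM at 6 mM (log2 fold change 1.38 ± 0.28, edgeR adjusted p = 0.000345). No library overlapped. Junb averaged 32.4 ± 5.69 CPM at 10 mM and 17.5 ± 1.68 CPM at 6 mM. The nuclear receptor Nr4a1 averaged 30.7 ± 5.38 CPM at 10 mM and 10.6 ± 1.79 CPM at 6 mM. Its relative Nr4a3 averaged 3.71 ± 0.955 CPM at 10 mM and 0.838 ± 0.242 CPM at 6 mM. Srf, which controls many of these genes, averaged 50.2 ± 4.15 CPM at 10 mM and 34.9 ± 3.08 CPM at 6 mM. Klf2, a zinc finger factor, fell with 2.80 ± 0.759 CPM at 10 mM and 5.37 ± 1.13 CPM at 6 mM (log2 fold change -0.95 ± 0.21, edgeR adjusted p = 0.000543). Of the 19 feedback genes of MAP kinases 9 rose and 1 fell, while 13 had been lower at 4 mM. Among phosphatases of MAP kinases, Dusp4 averaged 144 ± 21.6 CPM at 10 mM and 68.8 ± 14.3 CPM at 6 mM. Dusp10 averaged 43.5 ± 1.32 CPM at 10 mM and 23.1 ± 1.45 CPM at 6 mM. Dusp16 averaged 92.8 ± 2.30 CPM at 10 mM and 51.2 ± 2.90 CPM at 6 mM. Spry2, a feedback inhibitor of receptor kinases, was the 1 that fell, with 8.64 ± 1.36 CPM at 10 mM and 12.2 ± 1.19 CPM at 6 mM against a vehicle mean of 38.8 ± 4.29 CPM.

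The NF-kB list included 11 higher and 2 lower genes of 25 tested, but the count of higher genes was 6 or 7 when library a or b of 6 mM, or library a or c of 10 mM, was left out. Its 14 subunits and inhibitors held 5 higher and 1 lower, with a median log2 fold change of 0.067. Its 11 cytokine and surface genes held 6 higher and 1 lower, with a median of 0.464. Nfkbia, the inhibitor that NF-kB induces against itself, had 75.6, 80.4 and 77.8 CPM at 10 mM, against 41.4, 42.7 and 47.0 CPM at 6 mM (log2 fold change 0.84 ± 0.09, edgeR adjusted p = 8.35e-09). Over the doses its mean was 14.9 CPM in vehicle, 25.3 at 4 mM, 43.7 at 6 mM and 77.9 at 10 mM. Tnfaip3, the A20 enzyme of the same feedback, averaged 52.1 ± 1.07 CPM at 10 mM and 38.4 ± 1.33 CPM at 6 mM. Ptgs2, the inducible cyclooxygenase, had 377, 301 and 375 CPM at 10 mM, against 164, 154 and 194 CPM at 6 mM, without overlap (log2 fold change 1.04 ± 0.14, edgeR adjusted p = 1.58e-06). Csf1, a macrophage growth factor, fell with 300 ± 27.0 CPM at 10 mM and 491 ± 18.7 CPM at 6 mM (log2 fold change -0.71 ± 0.07, edgeR adjusted p = 1.34e-08). Nfkbie, another inhibitor, fell with 1.25 ± 0.302 CPM at 10 mM and 2.35 ± 0.261 CPM at 6 mM.

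Of 36 p53 targets tested 11 rose (30.6%) and 9 fell (25%), against 19.5% and 18% of all genes tested, with a median log2 fold change of 0.08 that turned to -0.03 under library totals alone. By role, among 5 feedback genes 3 rose and 1 fell, among 9 arrest genes 3 rose and 1 fell, among 10 death genes 4 rose and 1 fell, and among 12 genes of repair and metabolism 1 rose and 6 fell; differences between roles were not tested. Mdm2, the ligase that degrades p53, had 1724, 1880 and 1744 CPM at 10 mM, against 914, 913 and 854 CPM at 6 mM. Every 10 mM library was far above every 6 mM library (log2 fold change 1.00 ± 0.06, edgeR adjusted p = 2.96e-14). Its dose series was 259.6 CPM in vehicle, 364 at 4 mM, 894 at 6 mM and 1783 at 10 mM. Bbc3, the death factor PUMA, had 38.0, 31.1 and 38.6 CPM at 10 mM, against 15.6, 11.4 and 14.6 CPM at 6 mM (log2 fold change 1.37 ± 0.15, edgeR adjusted p = 2.39e-08). Btg2, an antiproliferative factor, averaged 146 ± 7.62 CPM at 10 mM and 76.8 ± 3.03 CPM at 6 mM. Plk2, a stress kinase, averaged 502 ± 15.7 CPM at 10 mM and 340.5 ± 40.8 CPM at 6 mM. Cdkn1a, the cell-cycle inhibitor p21, differed little: 277, 286 and 279 CPM at 10 mM, against 259, 261 and 246 CPM at 6 mM. Its groups did not overlap, but the difference was small (log2 fold change 0.14 ± 0.05, edgeR adjusted p = 0.0452). The call ended when any 1 of the 6 libraries was left out (adjusted p up to 0.2) and, with library totals alone, at 0.664. Tigar, which restrains glycolysis, fell with 6.17 ± 0.609 CPM at 10 mM and 10.2 ± 0.580 CPM at 6 mM, against 18.9 ± 2.70 CPM in vehicle cells. Polk, a translesion polymerase, averaged 73.0 ± 7.10 CPM at 10 mM and 114 ± 12.9 CPM at 6 mM. Ddb2, a damage sensor of excision repair, averaged 5.35 ± 0.225 CPM at 10 mM and 8.20 ± 0.769 CPM at 6 mM. Sesn2, a sestrin, averaged 106 ± 2.59 CPM at 10 mM and 137 ± 7.87 CPM at 6 mM. Ccng1, cyclin G1, averaged 661 ± 14.8 CPM at 10 mM and 818 ± 35.3 CPM at 6 mM (log2 fold change -0.31 ± 0.06, edgeR adjusted p = 8.36e-05). In the BCL2 family 4 of 13 genes rose and 1 fell. Mcl1, a short-lived survival protein, had 262, 289.6 and 267 CPM at 10 mM, against 118, 117 and 119.8 CPM at 6 mM, with tight groups and no overlap (log2 fold change 1.20 ± 0.05, edgeR adjusted p = 7.67e-16). At 4 mM it had been below vehicle, with 133 CPM in vehicle, 90.4 at 4 mM, 118 at 6 mM and 273 at 10 mM.

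The ATF4 programme, raised at 4 mM in 43 of 48 genes, was mixed in the step: 9 rose (18.8%) and 14 fell (29.2%), against 19.5% and 18% of all genes tested. Atf4 itself had 589.7, 572 and 564 CPM at 10 mM, against 661, 696 and 717 CPM at 6 mM (log2 fold change -0.26 ± 0.08, edgeR adjusted p = 0.00977). Its 10 mM libraries lay below all 6 mM libraries and above the vehicle mean of 333 ± 30.5 CPM. Of 9 amino acid carriers 5 fell and 1 rose. Slc7a11, the cystine carrier, had 36.8, 33.1 and 33.8 CPM at 10 mM, against 70.4, 64.5 and 69.0 CPM at 6 mM, without overlap (log2 fold change -0.98 ± 0.07, edgeR adjusted p = 1.7e-11). Its means ran at 47.5 CPM in vehicle, 74.2 at 4 mM, 67.98 at 6 mM and 34.6 at 10 mM. Slc3a2, the heavy chain that pairs with it, went the other way with 607 ± 9.92 CPM at 10 mM and 449 ± 5.89 CPM at 6 mM (log2 fold change 0.43 ± 0.06, edgeR adjusted p = 1.58e-06). Trib3, a pseudokinase, fell with 133 ± 4.16 CPM at 10 mM and 207 ± 0.419 CPM at 6 mM. Stc2, stanniocalcin 2, fell with 2.47 ± 0.420 CPM at 10 mM and 4.99 ± 1.12 CPM at 6 mM. Ddit3, the death-linked factor CHOP, rose with 212 ± 10.97 CPM at 10 mM and 149.7 ± 11.7 CPM at 6 mM (log2 fold change 0.50 ± 0.13, edgeR adjusted p = 0.0034). Cebpb, a partner of ATF4, averaged 55.3 ± 8.93 CPM at 10 mM and 29.6 ± 4.65 CPM at 6 mM. The secreted stress factor Gdf15 averaged 5.48 ± 1.02 CPM at 10 mM and 2.73 ± 0.154 CPM at 6 mM. Of 23 genes of the endoplasmic reticulum stress list 5 rose (21.7%) and 4 fell (17.4%), shares near those of all genes tested (19.5% and 18%), and the higher count ran from 2 to 4 when 1 library was left out. Of this list's called genes 55.6% were higher with TMM factors and 10% with library totals alone. Crebrf, a regulator of the factor CREB3, averaged 66.5 ± 7.73 CPM at 10 mM and 34.4 ± 5.42 CPM at 6 mM. Herpud1, which helps degrade misfolded proteins, averaged 144 ± 5.93 CPM at 10 mM and 187 ± 16.5 CPM at 6 mM.

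The composite element of C/EBP and ATF proteins holds the core TGATGCA. Windows matched 38 of the 48 ATF4 targets, and 14 of them (36.8%) held it on either strand, against 2.3% of tested genes. It was in 3 of 9 matched genes that rose and in 6 of 13 that fell. Atf3 and Slc7a11, which moved in opposite directions, both hold it, as the windows from 150 bases before to 30 after the start show, with TGATGCA or its reverse complement TGCATCA in capitals.
Atf3 (chr1:191183304-191183483, minus strand): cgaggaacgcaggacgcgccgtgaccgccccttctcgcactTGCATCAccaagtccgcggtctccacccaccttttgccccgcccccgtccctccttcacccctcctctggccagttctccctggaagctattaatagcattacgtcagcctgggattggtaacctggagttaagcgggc
Slc7a11 (chr3:50443584-50443763, minus strand): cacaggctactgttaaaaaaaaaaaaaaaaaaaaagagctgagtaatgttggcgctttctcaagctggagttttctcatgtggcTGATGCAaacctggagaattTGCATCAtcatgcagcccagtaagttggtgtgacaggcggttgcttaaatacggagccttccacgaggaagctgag
No direction of change is drawn from these letters.

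Of 31 antioxidant and related genes of the NRF2 programme 12 fell and 4 rose. Srxn1, sulfiredoxin, had 70.2, 69.4 and 69.9 CPM at 10 mM, against 112, 108 and 114 CPM at 6 mM. The groups were tight and apart (log2 fold change -0.67 ± 0.05, edgeR adjusted p = 5.53e-11). Nqo1, a quinone reductase, averaged 17.5 ± 1.05 CPM at 10 mM and 26.8 ± 2.72 CPM at 6 mM (log2 fold change -0.61 ± 0.13, edgeR adjusted p = 0.000432). Gsta4, a glutathione transferase, averaged 4.07 ± 0.213 CPM at 10 mM and 7.86 ± 0.726 CPM at 6 mM. The 3 pathway-control genes that rose included Nfe2l2, which encodes NRF2, with 127 ± 8.76 CPM at 10 mM and 101 ± 4.57 CPM at 6 mM. Bach1, its repressor, rose with 81.0 ± 2.61 CPM at 10 mM and 54.8 ± 0.105 CPM at 6 mM. Chaperone genes of the heat shock list rose in 15 of 23 cases and fell in 0. Hsph1, a large chaperone of the HSP110 class, averaged 218 ± 4.63 CPM at 10 mM and 132 ± 1.01 CPM at 6 mM (log2 fold change 0.72 ± 0.05, edgeR adjusted p = 1.5e-11). Dnaja1, a co-chaperone, averaged 218 ± 3.17 CPM at 10 mM and 165 ± 4.67 CPM at 6 mM. Of 17 metal and iron genes 7 rose and 1 fell. The metallothionein Mt1, which binds zinc and other metals, averaged 229 ± 34.5 CPM at 10 mM and 121 ± 24.4 CPM at 6 mM (log2 fold change 0.93 ± 0.20, edgeR adjusted p = 0.000811). Its relative Mt2 averaged 265 ± 48.2 CPM at 10 mM and 136 ± 32.5 CPM at 6 mM. Mtf1, the zinc sensor that induces them, fell with 13.3 ± 0.214 CPM at 10 mM and 17.6 ± 0.293 CPM at 6 mM. Tfrc, the transferrin receptor for iron uptake, had 409, 444 and 395 CPM at 10 mM, against 301, 341 and 298 CPM at 6 mM, higher at 10 mM in every library (log2 fold change 0.41 ± 0.07, edgeR adjusted p = 5.23e-05).

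Cholesterol synthesis fell as a pathway list: 18 of 20 synthesis enzymes were lower and 0 higher, and of 29 genes with uptake, control and export 20 were lower and 0 higher (1 or 2 higher under 6 of the alternatives), with a median log2 fold change of -0.42. At 4 mM 22 of the 29 had been called higher and 0 lower. The 10 mM means lay below vehicle for 21 of 29 genes, against 4 of 29 at 6 mM. Hmgcs1, the synthase that makes HMG-CoA, had 426, 436 and 377 CPM at 10 mM, against 638, 635 and 645 CPM at 6 mM. The 10 mM libraries were all lower (log2 fold change -0.63 ± 0.07, edgeR adjusted p = 2.38e-08). Its dose series was 536 CPM in vehicle, 724 at 4 mM, 639.6 at 6 mM and 413 at 10 mM. Mvd, a mevalonate pathway decarboxylase, had 49.7, 43.2 and 39.6 CPM at 10 mM, against 87.3, 86.7 and 86.2 CPM at 6 mM (log2 fold change -0.98 ± 0.10, edgeR adjusted p = 4.1e-09). No library overlapped. Idi1, the isomerase after it, averaged 165 ± 10.6 CPM at 10 mM and 259.8 ± 21.7 CPM at 6 mM. Dhcr7, which makes the last step to cholesterol, averaged 33.3 ± 3.06 CPM at 10 mM and 56.3 ± 1.62 CPM at 6 mM. Tm7sf2, a sterol reductase, averaged 3.79 ± 0.811 CPM at 10 mM and 7.34 ± 0.618 CPM at 6 mM. Abca1, a sterol exporter, fell with 6.68 ± 1.31 CPM at 10 mM and 10.7 ± 1.36 CPM at 6 mM. CCAAT, bound by NF-Y beside SREBP, was in the window of 16 of 20 matched genes (80%), against 43.7% of tested genes.

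Of 15 fatty acid genes 7 fell and 1 rose. Acss2, which makes acetyl-CoA from acetate, had 15.8, 16.9 and 14.2 CPM at 10 mM, against 33.0, 36.5 and 29.7 CPM at 6 mM, again without overlap (log2 fold change -1.08 ± 0.12, edgeR adjusted p = 2.5e-08). Fasn, fatty acid synthase, averaged 439 ± 68.04 CPM at 10 mM and 759.7 ± 55.4 CPM at 6 mM. Elovl6, an elongase, averaged 41.3 ± 2.39 CPM at 10 mM and 73.9 ± 0.219 CPM at 6 mM. Srebf1, which encodes SREBP1, was the 1 that rose, with 134 ± 7.34 CPM at 10 mM and 106 ± 3.62 CPM at 6 mM (log2 fold change 0.33 ± 0.06, edgeR adjusted p = 0.000152). Vldlr, a lipoprotein receptor that ATF4 also targets, averaged 54.5 ± 2.30 CPM at 10 mM and 84.6 ± 8.69 CPM at 6 mM. In methionine and one-carbon metabolism 6 of 20 genes rose (30%) and 4 fell (20%), against 19.5% and 18% of all genes tested, with a median log2 fold change of -0.009. Among the called genes of this list 60% were higher with TMM factors and 33.3% with library totals alone. Mat2a, which makes S-adenosylmethionine, had 44.5, 49.2 and 44.4 CPM at 10 mM, against 100.2, 119 and 121 CPM at 6 mM, all at 10 mM far below 6 mM (log2 fold change -1.30 ± 0.07, edgeR adjusted p = 2.96e-14). Over the doses its mean was 271 CPM in vehicle, 152 at 4 mM, 113 at 6 mM and 46.0 at 10 mM, lower at each of these doses. Amd1, which uses that product for polyamines, averaged 73.5 ± 0.753 CPM at 10 mM and 106 ± 9.89 CPM at 6 mM.

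HIF1, the oxygen-regulated factor, has 39 tested targets here, of which 19 rose and 3 fell (1 without library b of either dose). Of 20 genes of glucose uptake and glycolysis 7 rose and 2 fell, Hk2 among those that rose. Pfkfb3, which makes the activator of phosphofructokinase, averaged 95.0 ± 2.34 CPM at 10 mM and 47.3 ± 3.11 CPM at 6 mM (log2 fold change 1.01 ± 0.09, edgeR adjusted p = 1.02e-09). Bhlhe40, a repressor shared by the hypoxia and clock lists, had 175, 175 and 182 CPM at 10 mM, against 61.7, 52.7 and 63.4 CPM at 6 mM (log2 fold change 1.58 ± 0.11, edgeR adjusted p = 5.69e-12). Of 16 clock genes 8 rose and 2 fell (1 without library b of 6 mM or library c of 10 mM). Its relative Bhlhe41 averaged 49.98 ± 7.03 CPM at 10 mM and 18.2 ± 3.32 CPM at 6 mM. Per1, a period gene with immediate early induction, averaged 54.3 ± 2.04 CPM at 10 mM and 23.8 ± 1.73 CPM at 6 mM. Nr1d2, the other REV-ERB, averaged 145 ± 8.95 CPM at 10 mM and 91.8 ± 4.48 CPM at 6 mM. Arntl, the activator BMAL1, averaged 18.4 ± 1.06 CPM at 10 mM and 11.8 ± 1.28 CPM at 6 mM. Per3, a period gene of the same family, fell: it had 2.75, 2.15 and 1.95 CPM at 10 mM, against 10.00, 14.2 and 10.5 CPM at 6 mM (log2 fold change -2.35 ± 0.17, edgeR adjusted p = 1.5e-11). Vehicle cells had 7.78 ± 1.16 CPM, so Per3 lay below vehicle at 10 mM and above it at 6 mM.

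In RNA processing, 14 of 31 splicing genes rose and 4 fell. Clk1, a kinase of splicing factors, averaged 143 ± 13.4 CPM at 10 mM and 81.4 ± 3.63 CPM at 6 mM. Hnrnpu, a nuclear RNA-binding protein, averaged 892 ± 41.1 CPM at 10 mM and 600.5 ± 5.49 CPM at 6 mM (log2 fold change 0.57 ± 0.04, edgeR adjusted p = 4.86e-12). Srsf1, an SR splicing factor, fell with 218 ± 9.35 CPM at 10 mM and 333 ± 5.33 CPM at 6 mM (log2 fold change -0.61 ± 0.04, edgeR adjusted p = 5.13e-12). Of 342 zinc finger genes named Zfp, 100 fell (29.2%) and 50 rose (14.6%), against 18% and 19.5% of all genes; the higher count was 31 without library a of 6 mM and 32 without library b of 10 mM.

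Of 11 genes of the mitochondrial genome tested 5 fell and 0 rose. mt-Nd1, a subunit of complex I, had 1488, 1539 and 1414 CPM at 10 mM, against 2892, 2689 and 2773 CPM at 6 mM (log2 fold change -0.91 ± 0.07, edgeR adjusted p = 9.18e-12). mt-Nd4, of the same complex, averaged 574 ± 60.8 CPM at 10 mM and 823 ± 36.9 CPM at 6 mM. Nuclear copies close in sequence make these counts uncertain. The nuclear genes of oxidative phosphorylation showed 5 lower (6.67%) and 1 higher (1.33%) of 75, both far under the shares of all genes tested (18% and 19.5%), and 18 lower with only the 4 h libraries in the fit. Leaving out library b of 10 mM gave 3 lower, and leaving out library a of 6 mM gave 3 lower and 3 higher. The poly-A selected libraries let 6 of 67 replication-linked histone genes be tested, of which 3 rose and 0 fell. Hist1h2bc averaged 13.9 ± 1.55 CPM at 10 mM and 5.67 ± 0.508 CPM at 6 mM. Hist1h1c averaged 12.7 ± 0.875 CPM at 10 mM and 5.53 ± 0.981 CPM at 6 mM.

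The called genes also differed in structure, given here as a description. Protein-coding genes that rose had a median span of 30.92 kb, 10 exons in their longest transcript and 64.3 CPM, those that fell 21.82 kb, 7 exons and 17.9 CPM, and those without a call 22.61 kb, 8 exons and 28.0 CPM. By span, 10.4% of genes under 5 kb rose and 17.7% fell, while 28.5% of genes of 40 to 80 kb rose and 18.1% fell. The share that rose was lower again in longer genes, at 23.4% from 80 to 160 kb (15.4% fell) and 18.4% above 160 kb (17.5% fell). The part of these differences in level in the differences in structure was not tested. Among noncoding classes, 13 of 38 transcripts from bidirectional promoters (34.2%) fell and 0 rose, 64 of 292 lincRNAs (21.9%) fell and 23 (7.88%) rose, and 53 of 261 antisense transcripts (20.3%) fell and 17 (6.51%) rose. The lower shares of lincRNAs and antisense transcripts were near the 18% of all genes tested, and their higher shares were below 19.5%. Of 167 processed transcripts 38 (22.8%) fell and 13 (7.78%) rose. Of 23 transcribed unprocessed pseudogenes 8 (34.8%) fell and 3 (13%) rose. Some classes had fewer calls: of 297 models annotated TEC (to be experimentally checked) 13.5% rose and 10.4% fell, and of 342 processed pseudogenes 4.39% rose and 2.63% fell.

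After 20 h without hydrazine, cells that had received 10 mM or 6 mM differed in far fewer calls. The washout libraries are separate from those at 4 h. Of 13258 genes 6 (0.0453%) passed, 4 higher (0.0302%) and 2 lower (0.0151%). Without adjustment 2292 genes had a p under 0.05, and DESeq2 called 66. Library c of 6 mM stood apart after washout: ribosomal protein genes took 8.865% of its counts, while they took 5.867%, 5.775% and 6.045% in the 10 mM libraries and 6.217% and 6.075% in libraries a and b of 6 mM. The number of genes called was 314 without library a, 1098 without library b and 2 without library c of 6 mM, and 2 or 3 when 1 library of 10 mM was left out. Leaving out library c of 6 mM thus did not raise the count above 6. The part of that library in the low count was not tested in any other way. Tfrc averaged 281 ± 3.85 CPM after 10 mM and 179.7 ± 16.6 CPM after 6 mM (log2 fold change 0.64 ± 0.07, edgeR adjusted p = 8.48e-06), and it was the 1 gene called in the same direction at both times. Vehicle cells had a mean of 265.9 CPM of Tfrc after washout, so the 6 mM mean lay below vehicle and the 10 mM mean lay nearer to it. Gm26917, a noncoding transcript, averaged 252 ± 52.6 CPM after 10 mM and 69.8 ± 8.90 CPM after 6 mM (log2 fold change 1.85 ± 0.15, edgeR adjusted p = 2.1e-08). Ptprb and Scel were the other genes called higher, and Cxxc5 and Tmem176a the 2 called lower. Genes higher in the step at 4 h had a median log2 fold change of 0.05 in the step after washout, and genes lower at 4 h had -0.02. The difference between the steps was itself tested: 3038 genes (22.9%) had a different step at the 2 times, 1429 higher (10.8%) and 1609 lower (12.1%) after washout than at 4 h. For the mitosis list the median step after washout was 0.095, for ribosome biogenesis 0.025, for TGF-beta and BMP targets -0.054 and for cholesterol genes -0.116.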

How the data were processed

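Total RNA of FE1 cells was extracted with Qiazol, and poly-A selected stranded libraries were sequenced as pairs of 75 bases, per the labels' protocols. The authors deposited a table of expected counts per gene, which need not be whole (73.9% of values above 0 were whole) and were rounded here before testing. The aligner, the counting tool and the genome build are not given in the sources used here. Gene names matched 97.2% of 49585 entries, and unmatched entries took 0.0181% of all counts. Locations are from GENCODE M21 (GRCm38) and promoter windows from RefSeq (GRCm38.p6).

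Genes were kept with the edgeR expression filter (minimum count 10, minimum total 15), which left 13258, and libraries were scaled with TMM. All 32 libraries entered 1 model, with a coefficient for each group (22 residual degrees of freedom, common biological coefficient of variation 0.0847, robust estimation). Genes were called at 0.05 by the quasi-likelihood test of edgeR, adjusted with the Benjamini-Hochberg method. The step was taken at 4 h and after washout, and the difference between both was tested in the same model. Libraries held 10560942 to 17086721 counts, so genes of few CPM carry wide errors.

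Genes named outside the lists were the 15 in each direction with the largest change among called genes with a mean of at least 5 CPM in 1 group and libraries that did not overlap. Within the 40 lists, up to 4 called members per direction with the largest changes were named, with well-known members whether called or not and some further members chosen after their values were seen. The lists and members were chosen with earlier results of these data known. Lists are described by counts and medians, without a set test.

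On simulated data with 50 genes changed at each fold, 48 genes were found again at 1.5-fold and all 50 at 2-, 3- and 4-fold in the step at 4 h, with 8 false calls in 13258 genes. The changed genes were drawn only from those with a mean of at least 5 CPM, with as many increases as decreases, and all genes were given the same spread. Recovery was therefore not tested for genes of fewer CPM or of wide spread, and these numbers are not extended to them. Protein-coding genes at least 2-fold lower in the step had a median of 1.97 CPM. Alternatives were DESeq2 size factors, library totals alone, no filter, the DESeq2 Wald test, only the groups compared, only the same time point, no robust estimation, a block for the replicate letter and each library left out in turn. Software was edgeR 4.0.16 and DESeq2 1.42.0 in R 4.3.3. Reads, transcripts and splicing were not analysed here. Some members of the lists are not reported here by name.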

Additional observations from a re-analysis of the deposited data

Results flagged for a closer look

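The step from 6 mM to 10 mM differed between the times. In a test of the difference itself (step after washout minus step at 4 h, by edgeR, with adjusted p under 0.05), 3038 genes passed. The genes named above whose steps differed by at least 4-fold are given here, as differences of log2 fold changes. The immediate early genes Fosb and Egr1 had differences of -3.24 and -2.88, Gm37123 had -2.71 and Tcim had -2.48, so the increase at 4 h was not seen at that size after washout. The differences were 2.90 for Notch3, 2.77 for Sec14l5, 2.42 for Celf5, 2.18 for Pitpnc1 and 2.10 for Per3, all of which were lower in the step at 4 h. Gm26917 had a difference of 2.05, with a call after washout and none at 4 h.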

How the results depend on the processing

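The step at 4 h kept its size under most alternatives: 4056 to 4460 genes were called when 1 of the 6 libraries was left out, and of 4969 genes called by edgeR and 4829 by DESeq2, 4740 were shared in the same direction. Library totals alone gave 1565 genes higher, and moved the share of genes higher at 4 mM that rose to 5.61% and of genes lower at 4 mM that fell to 17.4%; without a filter the first share was 6.55%. The count after washout was not stable. It was 11 (7 higher, 4 lower) without a filter, 66 (45 and 21) with the DESeq2 Wald test, 3 (2 and 1) with only the same time point and 0 (0 and 0) with only the groups compared, and 1 lower gene with DESeq2 size factors and with the replicate block. Leaving out 1 library gave 2 to 1098 genes, 2 to 496 higher and 0 to 602 lower, the highest without library b of 6 mM. The difference between times had 1493 genes (833 higher, 660 lower) with only the groups compared and 804 lower with library totals alone; it was not run with only the same time point, which holds 1 time. The cause of these shifts was not tested. Deviations of same letters at 10 mM and 6 mM had r = 0.044 (a), 0.126 (b) and -0.034 (c) across genes. Unlike letters had -0.123 to 0.083. Library b had the lowest immediate early median of its group in vehicle and at 4, 6 and 10 mM, though not at 1 mM. Letters were not treated as pairs, and a shared effect of the letter was not tested by itself. A replicate block gave 4869 genes called at 4 h. For genes under a few CPM, depth limits the size of change that can be seen, and multi-copy genes can be split between copies by the counting: Gm12918, a processed pseudogene, had 67.9, 3.17 and 90.3 CPM in the 10 mM libraries.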
